A study of Homo sapiens with 6 samples.

Results

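The gene set comprised 10 genes that are widely used as mucin, trefoil and surface markers of classical pancreatic ductal adenocarcinoma (PDAC): the mucins *MUC1*, *MUC5AC*, *MUC5B*, *MUC13* and *MUC16*, the trefoil factors *TFF1* and *TFF2*, the secretory protein gene *AGR2*, and the carcinoembryonic antigen family genes *CEACAM5* and *CEACAM6*. They were chosen by name, with earlier results of these data known, and all 10 were found among the 20347 gene symbols with RNA-seq values in PaTu8988t cells. Of the 10, *MUC1* was expressed in every library, 4 were seen with at most 3 reads in any library, and 5 had no read in any of the 6 libraries. The name "classical markers" therefore described no expressed group in this cell line, and the genes are referred to here as the 10 mucin, trefoil and CEACAM genes. After *SAMD1* deletion, *MUC1* was 18.2% higher, a difference that did not pass the cut-off, and none of the other 9 genes rose above 3 reads in a clone.

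Mucins are large glycoproteins whose serine- and threonine-rich repeats carry dense O-linked sugar chains. *MUC1*, *MUC13* and *MUC16* encode membrane-anchored mucins of the apical cell surface, whereas *MUC5AC* and *MUC5B* encode secreted, gel-forming mucins that are packed together with trefoil peptides in the granules of gastric and other mucous cells. AGR2 is a protein disulfide isomerase of the endoplasmic reticulum that takes part in mucin folding, and CEACAM5 and CEACAM6 are adhesion proteins held in the membrane by a glycolipid anchor. In PDAC, a gastric-like programme of such genes, driven by factors such as GATA6, marks the classical subtype, and the basal-like subtype has lost it.

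PaTu8988t is an immortal line derived from a human PDAC. RNA-seq compared 3 replicates of control cells, which carried the Lenti-CRISPR V2 plasmid with an unspecific guide, with 3 clonally independent *SAMD1* KO lines, which carried the same plasmid with guides against *SAMD1* and were each grown from a single puromycin-selected clone. *SAMD1* encodes a chromatin protein that recognises unmethylated CpG-rich promoters, and the comparison asked which genes change when it is deleted. No other treatment or genotype was involved, so each KO library stands for 1 clone, and whether the control replicates were separate cultures is not given in the sources used here.

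Library totals ran from 35589477 to 45172216 reads. *SAMD1* itself had 2231, 2382 and 2299 normalized counts in the controls and 874, 1082 and 825 in the clones, a log2 fold change of -1.32 (SE 0.10; limma, adjusted p = 0.000724), so the transcript was lower in all 3 clones but was still made. The chi-square per degree of freedom between libraries, where counting noise alone gives about 1, was 2.64 to 5.19 for pairs of controls and 50.9 to 58.5 for pairs of clones. The p-values below thus set a mixture of spread between clones and a much smaller, possibly technical, spread between controls against the difference. Of the epithelial markers, *KRT8* (34191 ± 1339 against 45097 ± 11535 normalized counts; mean ± SD, n = 3 per group), *KRT18* (29567 ± 318 against 43002 ± 9100) and *EPCAM* (537 ± 28.9 against 520 ± 102.4) were well expressed in both groups, *CDH1* was low (38.3 ± 12.4 against 41.5 ± 3.4), and *KRT19*, a keratin of pancreatic ducts, had no read in any library. The sum of 9 markers of leukocytes, fibroblasts and endothelium was 594.8 to 611.5 normalized counts in the controls and 557.7 to 730.9 in the clones. *CD68* had the largest mean (358.8 ± 7.9 against 290.7 ± 43.5, log2 fold change -0.31). *COL3A1* (111.1 against 269.5), *COL1A1* (50.6 against 26.2), *CDH5* (33.1 against 10.6), *VWF* (27.0 against 26.5) and *PECAM1* (20.6 against 17.5) were also detected. *CD3E* and *DCN* were at 0, and *PTPRC* had no more than 3 reads. None of the 6 tested markers of these cells passed the cut-off with all 6 libraries, beside 7.85% of all tested genes. *CDH5* did pass it without clone 1 or clone 2 (log2 fold change -1.15 and -2.26), with a pseudocount of 10 and in DESeq2. *COL1A1* passed it without clone 2 (-1.42), and *COL3A1* without clone 3 (1.58) and in both count models. Their part in the results below was not tested.

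Because *MUC1* was the one expressed gene of the set and *AGR2* one of the silent ones, the promoters of these 2 genes are shown beside each other. The set of RefSeq promoters used here gave a window for 6 of the 10 genes (*MUC1*, *MUC13*, *MUC16*, *AGR2*, *CEACAM5* and *CEACAM6*). Each line is the 250 bases before the RefSeq start site on GRCh38.p14, written 5′ to 3′ on the gene's own strand, which is the minus strand for both, at chr1:155192916-155193165 for *MUC1* and chr7:16805000-16805249 for *AGR2*. The *AGR2*, *CEACAM6* and *MUC13* windows lie inside the longer gene spans that GENCODE 44 gives. That of *MUC16* (chr19:9065752-9066001) lies upstream of its GENCODE 44 span, which ends at 9010390. For these genes the start site thus depends on the annotation. Capitals mark GCGC, the same word on both strands and the motif that SAMD1 prefers, and TATAAA, which was searched on both strands and does not overlap GCGC in these windows.
MUC1: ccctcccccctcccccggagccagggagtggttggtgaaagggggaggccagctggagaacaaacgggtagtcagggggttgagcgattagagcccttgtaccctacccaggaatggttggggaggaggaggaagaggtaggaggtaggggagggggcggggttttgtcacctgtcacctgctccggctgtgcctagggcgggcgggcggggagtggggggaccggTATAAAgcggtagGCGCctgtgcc
AGR2: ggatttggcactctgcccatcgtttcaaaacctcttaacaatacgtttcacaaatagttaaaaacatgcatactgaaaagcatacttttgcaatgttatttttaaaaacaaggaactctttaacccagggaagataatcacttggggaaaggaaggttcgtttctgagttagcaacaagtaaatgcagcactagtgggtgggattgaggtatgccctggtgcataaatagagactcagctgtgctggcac
The *MUC1* window was 66.0% G and C and held 11 CpG dinucleotides, 1 GCGC and 1 TATAAA, whose last base lay 19 bases before the start site. The *AGR2* window was 40.4% G and C and held 3 CpG dinucleotides and neither motif. The other 4 windows held 2 (*CEACAM5*), 5 (*CEACAM6* and *MUC13*) or 6 (*MUC16*) CpG dinucleotides and no GCGC, and that of *CEACAM6* held 1 TATAAA, whose last base lay 134 bases before the start site. The median of 10260 tested genes with a window was 21 CpG dinucleotides and 65.2% G and C, and 80.87% of these windows held GCGC and 5.12% held TATAAA. Across all 27305 RefSeq windows the shares were 52.67% and 11.13%, and the median was 58.0% G and C. Their median count of CpG dinucleotides was 11, as in *MUC1*, and the lower quartile was 3, as in *AGR2*. Among the tested genes, 16% had fewer CpG dinucleotides than *MUC1* and 3.6% had fewer than *AGR2*. These matches describe letters in the reference sequence, and no binding data were analysed here.

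*MUC1* lies on chromosome 1 (GRCh38, 155185824 to 155192916, minus strand; GENCODE 44) and overlaps 1 further annotated gene on the same strand. Its normalized counts were 186.4, 189.8 and 192.4 in the controls and 213.6, 218.6 and 240.2 in clones 1, 2 and 3. Every clone was above every control. The means were 189.6 ± 3.0 and 224.1 ± 14.1 (SD, n = 3 per group), a ratio of 1.18 and a log2 fold change of 0.24 (SE 0.11, 95% confidence interval -0.012 to 0.49; limma, adjusted p = 0.186). The gene was therefore not called: calls required both a change of more than 0.5 on the log2 scale and p under 0.01 before adjustment, and this p was 0.0589. An exact permutation test of the 6 values gave its smallest possible p of 0.1. Among all 12773 tested genes, 7.85% were called, and 37.8% had groups that did not overlap, 19.2% with the clones higher, so the separation seen for *MUC1* was a common one in these libraries.

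**Figure D1:**
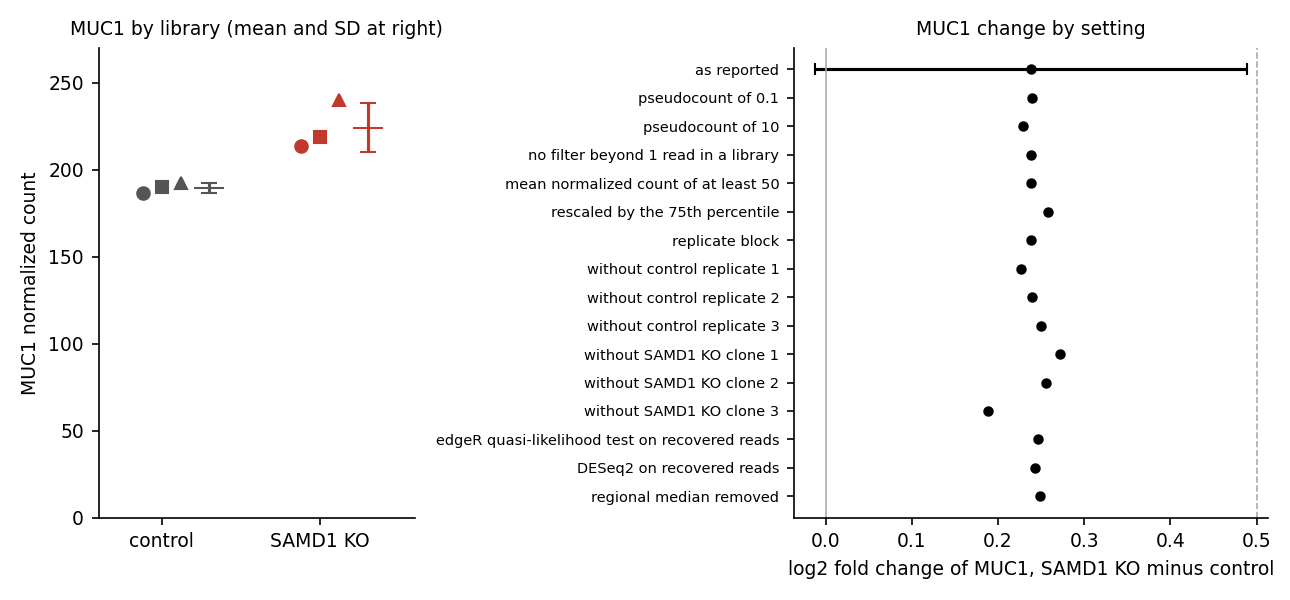
Left, *MUC1* in normalized counts for each library (grey, control replicates; red, *SAMD1* KO clones; circle, square and triangle for 1, 2 and 3), with the mean and SD of each group at the right of its points; the controls sit between 186.4 and 192.4 and the clones between 213.6 and 240.2. Right, the log2 fold change of *MUC1* under each processing alternative, with the 95% confidence interval for the value as reported; all points lie above 0 and below the dashed fold cut-off of 0.5.

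The *MUC1* values rested on 163, 194 and 168 reads in the controls and 216, 253 and 267 reads in the clones. Counting alone gives such totals a coefficient of variation of about 7.58% in the controls, whereas the 3 controls differed by only 1.58%, less than counting error. In the clones the observed value was 6.3% and the counting value 6.4%. The spread among the controls was thus smaller than counting noise alone gives on average, and the confidence interval above is the measure of how well the difference is known. Clone 3 was the highest library, and without it the log2 fold change of *MUC1* was 0.19. The size of its change stood at the 66.0th percentile of tested genes, and its mean level, 86.1 normalized counts per kb of exon, at the 30.9th percentile of levels per kb. *MUC1* was thus an expressed gene of lower than middling level. In bulk RNA, a rise in the RNA per cell and a rise in the share of cells that express a gene cannot be told apart.

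The other membrane mucins were at the edge of detection. *MUC13* (chromosome 3, 124905442 to 124953819, minus strand) had no read in the controls and 1, 0 and 2 reads in clones 1, 2 and 3. *MUC16*, which encodes the CA125 antigen (chromosome 19, 8848844 to 9010390, minus strand), had 1, 0 and 1 reads in the controls and 0, 0 and 3 in the clones. The groups overlapped for both genes, and no fold change is given because neither group exceeded 3 reads per library, the limit that a count of 0 allows. That limit is 2.59 to 3.44 normalized counts depending on the library. It covers counting error only.

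The gel-forming mucins *MUC5AC* and *MUC5B* are neighbours on chromosome 11 (1157953 to 1201138 and 1223066 to 1262172, plus strand). *MUC5AC*, the main mucin of gastric surface cells, had 1 read, in clone 3. *MUC5B*, a mucin of airway and gland secretions, had 1 read in clone 1 and 1 in clone 3. No control library held a read of either gene. An antisense gene, *MUC5B-AS1*, overlaps *MUC5B*, and 0.379% and 0.369% of the 50-base words in the longest *MUC5AC* and *MUC5B* transcripts are shared between the pair, so single reads cannot be assigned with certainty.

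The trefoil genes *TFF1* and *TFF2*, which encode small peptides secreted with mucus (chromosome 21, 42362282 to 42366535 and 42346357 to 42350997, minus strand), had no read in any of the 6 libraries. Neither did *AGR2* (chromosome 7, 16791811 to 16833433, minus strand). The same was true of *CEACAM5*, which encodes the tumour antigen CEA, and of *CEACAM6* (chromosome 19, 41708585 to 41730433 and 41750977 to 41772211, plus strand). Both groups were at 0 for these 5 genes, so no change was detectable at this depth. *CEACAM5* and *CEACAM6* each overlap a further annotated gene on the same strand, and *CEACAM6* also overlaps an antisense gene. Per kb of exon, the control level of *MUC1*, 78.95 normalized counts per kb, was at least 11.3-fold higher than the 3-read limit of *TFF1* and at least 16.06-fold higher than that of *TFF2*. It was at least 63.5-fold higher than the limit of *AGR2*, at least 91.58-fold higher than that of *CEACAM5* and at least 67.92-fold higher than that of *CEACAM6*. Sequence shared with other genes was 6.26% of 50-base words for *CEACAM5* and 8.25% for *CEACAM6*, and 0% for *TFF1*, *TFF2*, *AGR2*, *MUC1*, *MUC13* and *MUC16*. A counting rule that drops reads shared between genes would thus leave most of each transcript countable. Words repeated within the same gene, as in mucin repeats, were not examined.

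**Figure D2:**
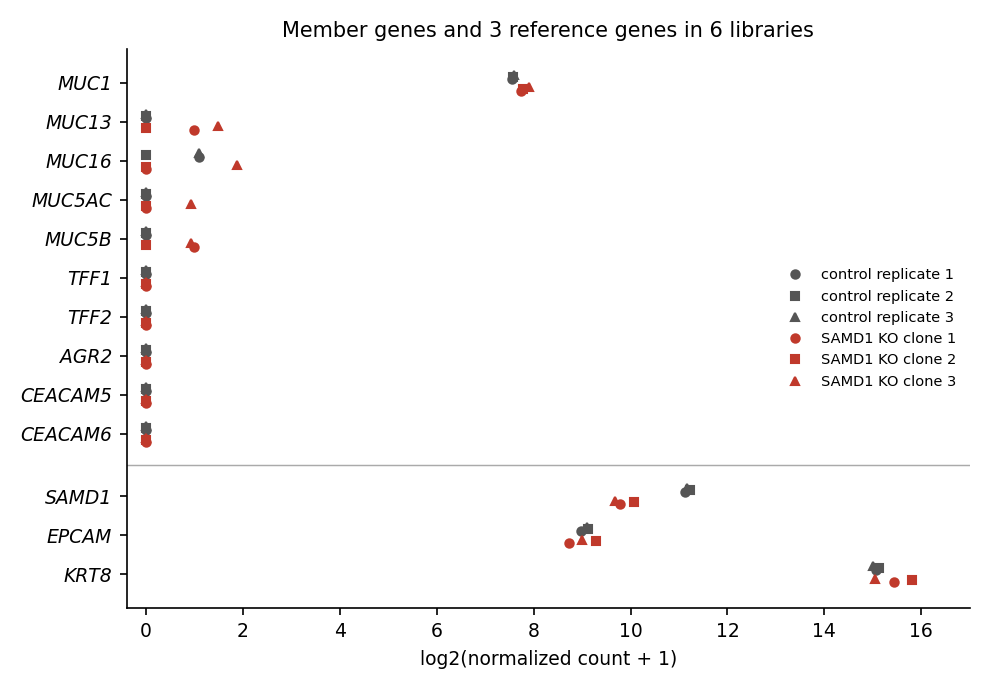
Each of the 10 genes and 3 reference genes (*SAMD1*, *EPCAM*, *KRT8*) in the 6 libraries, as log2(normalized count + 1), with grey symbols for control replicates and red symbols for *SAMD1* KO clones. *MUC1* is the one gene of the 10 away from the left edge, and the few points of the other genes off that edge, all below 2, are single libraries with 1 to 3 reads.

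Counted over the 9 genes other than *MUC1*, the controls held 1, 0 and 1 reads and clones 1, 2 and 3 held 2, 0 and 7. The 7 reads of clone 3 came from 4 genes, *MUC16*, *MUC13*, *MUC5AC* and *MUC5B*, and were the most of any library, while clone 2 had none. For scale, 29.3% of all 20347 genes had at most 3 reads in every library and 19.0% had none, against 9 and 5 of the 10 genes here. After the filter on low values (a mean of at least 10 normalized counts over the 6 libraries), *MUC1* was the 1 gene of the 10 that could be tested. It was not called, beside 7.85% of all tested genes, and the other 9 could not be called.

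The rest of the mucin family gave the same picture. Of 12 further mucin genes, 8 had no read in any library, and 3 (*MUC2*, *MUC12* and *MUC20*) had at most 3 reads. *MUC3A*, a membrane mucin of the intestine, had 8.01, 8.81 and 10.3 normalized counts in the controls and 8.90, 6.91 and 8.10 in the clones. Its groups overlapped and it was below the filter, so none of the 12 was tested. *MUC4*, a membrane mucin often raised in PDAC, and *MUC6*, the mucin of gastric glands, were among the 8 without a read.

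Relatives of the trefoil, AGR and CEACAM genes were also largely silent. Of 13 such genes, 7 had no read, *TFF3* and *AGR3* among them, and 4 had at most 3 reads, among them *CEACAM1*. The 2 tested relatives were not called, beside 7.85% called among all tested genes. They had a median log2 fold change of -0.23, against -0.0059 for all tested genes. *CEACAM19*, the CEACAM relative of smaller p, had 58.3, 61.6 and 51.5 normalized counts in the controls and 45.5, 51.0 and 44.1 in the clones. Its groups did not overlap, with every clone lower, and its log2 fold change was -0.28 (SE 0.18; limma, adjusted p = 0.329). *TXNDC12*, which encodes the AGR relative AGR1 of the endoplasmic reticulum, had 332 ± 49.6 and 294.9 ± 58.8 normalized counts (log2 fold change -0.18, SE 0.17), and with 1 library left out its log2 fold change ran from -0.34 (without clone 2) to -0.062 (without control replicate 2), with -0.27 without control replicate 3 and about -0.098 without clone 1 or 3.

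**Figure D3:**
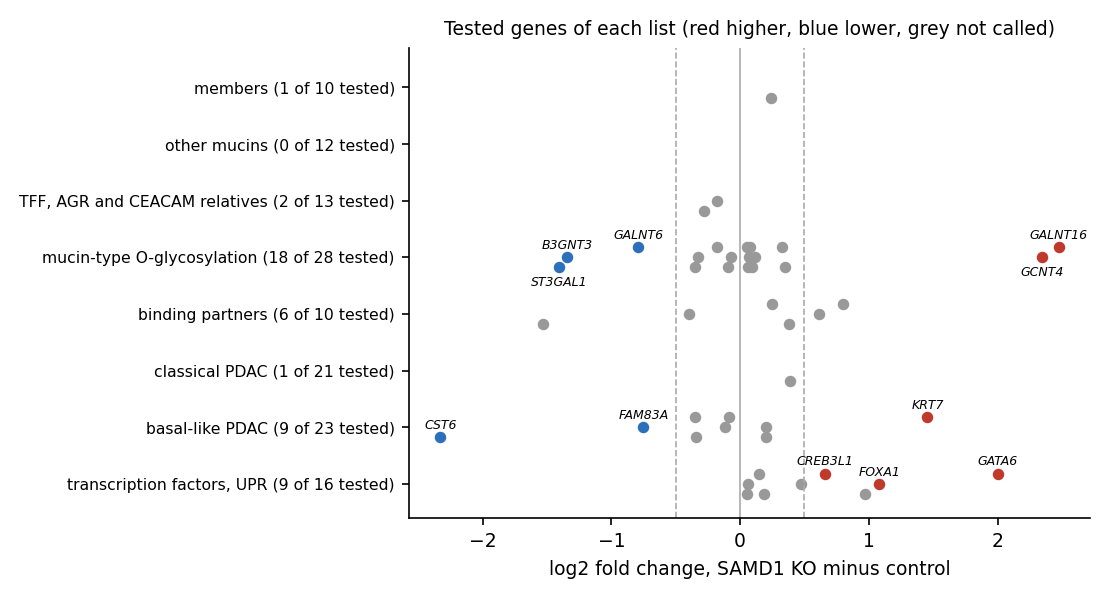
log2 fold changes (*SAMD1* KO minus control) of the tested genes in each list, 1 point per gene, red for called higher, blue for called lower and grey for not called, with dashed lines at the fold cut-off of 0.5 in either direction. Genes called in both directions appear in mucin-type O-glycosylation and in basal-like PDAC, whereas the single tested gene of the 10, *MUC1*, is grey at 0.24.

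Enzymes that build the sugar chains of mucins changed in both directions. The list held 28 genes, of which 18 were tested, 2 were called higher and 3 lower, beside 5.77% and 2.08% of all tested genes, and the median log2 fold change was 0.059. GALNT enzymes add the first N-acetylgalactosamine to the protein. *GALNT16*, one of them, had 219.6, 235.8 and 242.8 normalized counts in the controls and 1234, 1347 and 1317 in the clones. All 3 clones were far above all controls, with a log2 fold change of 2.48 (SE 0.083; limma, adjusted p = 2.78e-05). *GCNT4*, which encodes an enzyme of the core 2 branch, had 17.2, 26.4 and 20.6 normalized counts in the controls and 139, 85.5 and 115 in the clones, again without overlap (2.34, SE 0.26; limma, adjusted p = 0.00228). In clone 2, the 40 tested genes nearest to *GCNT4* had a median 0.62 below the controls on the log2 scale, and with such regional medians removed the *GCNT4* value was 2.54.

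Of the 3 enzyme genes that fell, *ST3GAL1*, whose enzyme caps the core 1 chain with sialic acid, had 974.6, 1048 and 927.8 normalized counts in the controls and 344, 334 and 443 in the clones. It fell by 1.40 on the log2 scale (SE 0.12; limma, adjusted p = 0.00098). *B3GNT3*, whose enzyme extends core 1 with N-acetylglucosamine, had 930.0, 957.9 and 962.2 normalized counts in the controls and 371, 318 and 442 in the clones, and fell by 1.34 (SE 0.12; limma, adjusted p = 0.00115). For both genes every clone was below every control. *GALNT6*, whose enzyme acts at the same initiating step as that of *GALNT16*, had 643, 633 and 561 normalized counts in the controls and 264, 410.4 and 404 in the clones, and fell by 0.79 (SE 0.18; limma, adjusted p = 0.0291). The *GALNT6* call was lost with fewer controls: without control replicate 1 or 2 the log2 fold change was -0.76 or -0.77 and the unadjusted p was 0.0122 or 0.0124.

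The remaining tested enzyme genes did not pass the cut-off. *C1GALT1*, whose enzyme makes the core 1 chain, had 1659 ± 50.9 and 1723 ± 61.4 normalized counts (log2 fold change 0.054, SE 0.059), and its chaperone gene *C1GALT1C1* had 1235 ± 18.9 and 1161 ± 119 (-0.094, SE 0.085). *GALNT1* and *GALNT14* had log2 fold changes of 0.32 (SE 0.059; limma, adjusted p = 0.0142) and 0.35 (SE 0.090; limma, adjusted p = 0.0456), both below the fold cut-off. The gastric and intestinal enzyme genes *GCNT3*, *B3GNT6* and *ST6GALNAC1* had no read in the controls and at most 2 reads in a clone, and were not tested.

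Genes for proteins that bind or signal with the set were tested for 6 of 10, and none was called, beside 7.85% of all tested genes. Their median log2 fold change was 0.31. *LGALS3*, which encodes the lectin galectin-3, a binding partner of MUC1, had 1617, 1631 and 1636 normalized counts in the controls and 2284, 2078 and 1992 in the clones. The groups did not overlap, and the log2 fold change of 0.38 (SE 0.066; limma, adjusted p = 0.0126) was below the fold cut-off. *EGFR*, a receptor that associates with MUC1, had 19176 ± 472 and 14667 ± 1786 normalized counts and a log2 fold change of -0.39 (SE 0.091; limma, adjusted p = 0.0319), again below the fold cut-off.

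*MSLN*, which encodes mesothelin, the ligand of MUC16, was uneven among the clones. It had 187.6, 241.7 and 193.6 normalized counts in the controls and 215.6, 955.5 and 224.0 in clones 1, 2 and 3. Clone 2 stood apart, and the other clones lay within the range of the controls. The log2 fold change of 0.80 (SE 0.54) became 0.091 without clone 2. *ACKR3*, which encodes a chemokine receptor proposed to bind trefoil factors, had 16.01, 21.5 and 18.3 normalized counts in the controls and 4.94, 1.73 and 17.99 in the clones, with clone 3 at the level of the controls. Its log2 fold change of -1.53 (SE 0.67; limma, adjusted p = 0.177) became -0.88 without clone 2 and -2.27 without clone 3, when the gene was called.

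Beyond the 10 genes, a list of 21 further classical PDAC genes had 1 tested gene and none called, beside 7.85% of all tested genes. Of the 21, 5 had no read and 6 had at most 3 reads. The list shares *TFF3* and *AGR3* with the relatives above and *ST6GALNAC1* with the enzymes, so these genes are counted in both places. *CLDN18*, a tight junction gene of gastric cells, had 11.4, 18.6 and 12.6 normalized counts in the controls and 23.7, 15.6 and 17.1 in the clones. The groups overlapped, with a log2 fold change of 0.39 (SE 0.31; limma, adjusted p = 0.447) that was 0.26 without control replicate 1, 0.58 without control replicate 2 and 0.21 without clone 1. Of 23 basal-like PDAC genes, 9 were tested, with 1 called higher and 2 lower, beside 5.77% and 2.08% of all tested genes. Their median log2 fold change was -0.12, and 8 had no read. In all, 20 of the 21 classical and 14 of the 23 basal-like genes were below the filter.

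The 3 called basal-like genes did not move one way. *KRT7*, a keratin of ductal epithelium, had 34.3, 26.4 and 29.8 normalized counts in the controls and 78.1, 90.7 and 83.6 in the clones (log2 fold change 1.46, SE 0.19; limma, adjusted p = 0.00392). *CST6*, which encodes the protease inhibitor cystatin E/M, had 44.6, 38.2 and 36.7 normalized counts in the controls and 4.94, 11.2 and 6.30 in the clones (-2.33, SE 0.33; limma, adjusted p = 0.00596). The groups overlapped for neither gene. *FAM83A*, which encodes a protein of EGFR signalling, had 199 ± 17.2 and 119 ± 19.5 normalized counts (-0.75, SE 0.16; limma, adjusted p = 0.0226). Without control replicate 3 it had a log2 fold change of -0.70 and was not called.

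Among 16 transcription factors and stress sensors of secretory and gastric-like cells, 9 were tested, and 3 were called higher and 0 lower, beside 5.77% and 2.08% of all tested genes. All 9 had a positive log2 fold change, with a median of 0.47, as had 6227 of the 12773 tested genes. *GATA6*, a transcription factor of the classical programme, had 36.6, 44.03 and 46.96 normalized counts in the controls and 149, 259 and 132 in clones 1, 2 and 3. All clones were above all controls, clone 2 the most, and the gene rose by 2.00 on the log2 scale (SE 0.27; limma, adjusted p = 0.00467). *FOXA1*, a pioneer factor of gut epithelium, had 272, 249 and 260.0 normalized counts in the controls and 523, 620.3 and 517 in the clones, a rise of 1.08 (SE 0.11; limma, adjusted p = 0.00147). *CREB3L1*, a membrane-bound factor of the secretory pathway, had 886, 1012 and 932 normalized counts in the controls and 1653, 1504 and 1322 in the clones, a rise of 0.66 (SE 0.098; limma, adjusted p = 0.00683).

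Several other regulators of mucous cells were barely expressed or did not pass the cut-off. Of the 16, 7 were below the filter on low values, among them *SPDEF*, *FOXA2*, *HNF4A*, *EHF*, *GRHL2* and *ERN2*. *ELF3*, an epithelial factor, had 9.15, 7.83 and 11.5 normalized counts in the controls and 17.8, 37.1 and 10.8 in the clones, with overlapping groups (log2 fold change 0.97, SE 0.46; limma, adjusted p = 0.204), and the value was 0.52 without clone 2. *KLF4*, a factor of surface epithelium, had 3555 ± 122 and 4962 ± 799.9 normalized counts (0.47, SE 0.11; limma, adjusted p = 0.0351), and it reached 0.58 without clone 1 and 0.53 with regional medians removed, and was then called. *GALNT16*, *ST3GAL1*, *GALNT6*, *GALNT1*, *GALNT14*, *C1GALT1*, *GATA6*, *FOXA1*, *ELF3*, *KLF4*, *KRT7*, *FAM83A*, *CLDN18*, *CEACAM19*, *TXNDC12* and *EGFR* overlap other annotated genes, as *KRT8* and *KRT18* do each other. So do the markers *EPCAM*, *CDH1*, *CD68*, *COL1A1*, *COL3A1*, *PECAM1* and *VWF*. Since the strand setting of the counting is not given in the sources used here, reads from such overlaps cannot be told apart.

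**Figure D4:**
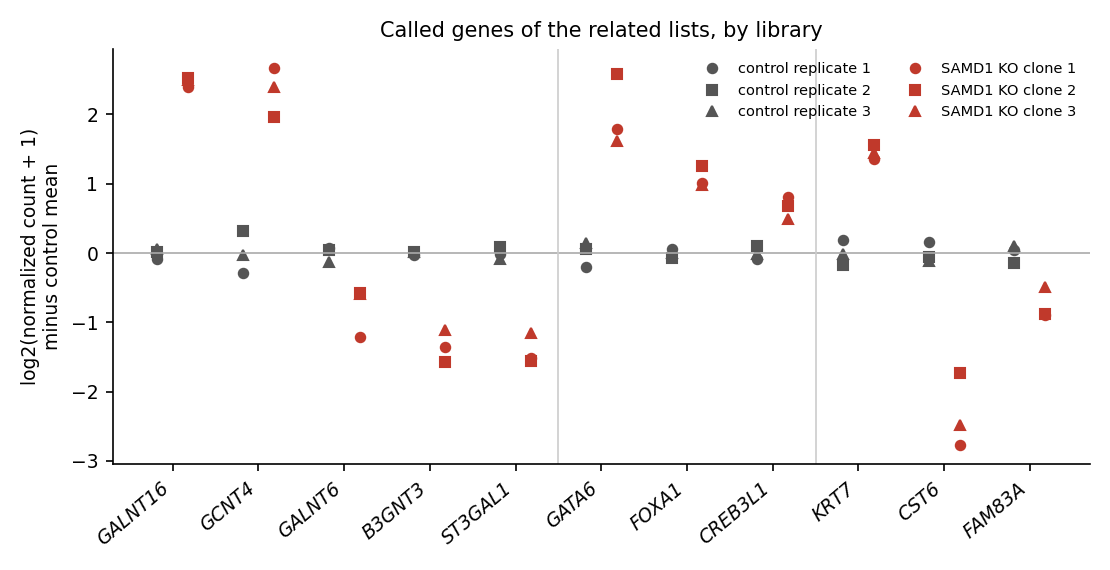
log2(normalized count + 1) of each library minus the mean of the controls, for the 11 called genes of the O-glycosylation, regulator and basal-like lists (left to right, separated by vertical lines), with grey symbols for control replicates and red symbols for *SAMD1* KO clones. The clones lie on 1 side of the controls for each of the 11 genes, above them for *GALNT16*, *GCNT4*, *GATA6*, *FOXA1*, *CREB3L1* and *KRT7* and below them for the rest. The genes were picked by their calls in these same libraries, which favours such separation, and 37.8% of all tested genes had groups that did not overlap.

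Lastly, the tested genes whose levels followed *MUC1* most closely over the 6 libraries were found by Pearson's r on log2(normalized count + 1). They were *ZNF704* (r = 0.9986), a zinc finger gene, *TCP11L2* (r = 0.9985) and *SP110* (r = 0.9982), a nuclear body gene. With 6 points in 2 groups, 277 tested genes reached an r above 0.95, so closeness of this kind was frequent. *ZNF704* had 1207, 1277 and 1317 normalized counts in the controls and 1741, 1919 and 2378 in the clones, a log2 fold change of 0.66, and like *MUC1* it was highest in clone 3. *TCP11L2* had 88.1, 97.8 and 102 normalized counts in the controls and 139, 150.3 and 201 in the clones. *SP110* had 552, 560.6 and 562 normalized counts in the controls and 635, 657 and 721 in the clones, with a log2 fold change of 0.26, close to the 0.24 of *MUC1*.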

How the data were processed

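RNA-seq of 3 control replicates and 3 *SAMD1* KO clones of PaTu8988t was used (6 libraries, TruSeq Stranded mRNA kit). Alignment by the authors used RNA-STAR against GenCode 43 (hg38), and the submitters' processing notes name featureCounts and DESeq2. What the authors deposited is a signal per gene and library, namely reads scaled by 1 factor for the library (normalized counts). All values (100%, within 0.01) were whole multiples of a single step per library, so whole reads were recovered. A second deposited table holds the authors' own DESeq2 comparison (mean, log2 fold change, standard error, statistic, p-value and adjusted p-value per gene) and was not used.

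limma 3.58.1 (lmFit, eBayes with trend) in R 4.3.3 was run on log2(normalized count + 1), 3 controls against 3 clones with no covariate, after genes whose mean normalized count was under 10 were set aside (12773 genes tested). Fold changes are on this scale and understate changes of low genes. Calls required a change of more than 0.5 on the log2 scale with p under 0.01 before adjustment, as in the study's methods. Adjustment was by Benjamini-Hochberg across every tested gene, and tests were two-sided. With 3 against 3 libraries, an exact permutation test cannot give a p below 0.1. The fit was also run on simulated counts. These had the same spread in both groups, unlike the libraries here, so they do not test the effect of unequal spread.

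Gene positions are from GENCODE 44 on GRCh38 (19742 of 20347 symbols, 196 through older symbols), and promoters are from RefSeq. Levels per kb divide by the exonic length of the gene. The members, lists and tests were chosen with earlier results of these data known. Named were all members, SAMD1, up to 3 called genes of smallest p of each list (or, with none called, the tested gene of smallest p), and the 3 genes closest to *MUC1* by r. *GCNT4*, *GALNT6*, *GALNT1*, *GALNT14*, *C1GALT1*, *C1GALT1C1*, *EGFR*, *MSLN*, *ACKR3*, *TXNDC12*, *ELF3*, *KLF4*, the marker genes, listed genes with few or no reads, and the promoters shown are outside this rule, having been picked with their values known. Alternatives tried were count models on recovered reads (the quasi-likelihood test of edgeR 4.0.16, and DESeq2 1.42.0), another pseudocount (0.1 or 10), another filter (none, or a mean of 50 or more), scaling to the 75th percentile, replicate number as a block, omission of each library, an adjusted p below 0.05 in the cut-off, and removal of the median shift of the 40 nearest tested genes. Protein sequences were not used here.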

Additional observations from a re-analysis of the deposited data

How the results depend on the processing

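Across the alternatives, the log2 fold change of *MUC1* stayed between 0.19 and 0.27 and its adjusted p between 0.128 and 0.425. It was never called, beside 7.85% of all tested genes with the settings as reported. The other 9 genes were below the filter and could not be called. In the fit without a filter, none of those with a read was called. edgeR gave *MUC1* 0.25 (adjusted p = 0.190) and DESeq2 0.24 (adjusted p = 0.283) on recovered reads. Leaving out each library in turn gave 568 to 862 genes called higher and 180 to 370 lower (737 and 266 with all libraries), and 0 to 1 binding partners, where the 1 was *ACKR3* without clone 3. The called counts of the O-glycosylation, regulator, basal-like, classical and relatives lists stayed within 1.5 times of those reported. Of the 37 genes with a log2 fold change followed here, 2 changed sign, both without a call: with 1 library left out, *CDH1* ran from -0.13 (without control replicate 1) to 0.32 and *EPCAM* from -0.21 to 0.076 (without clone 1), beside 0.17 and -0.065. Of 5 tested epithelial markers, 2 were called, *KRT18* and *KRT7*, beside 7.85% of all tested genes. *KRT18* (log2 fold change 0.52; limma, unadjusted p = 0.00881) kept its call in 1 of the 6 fits that leave out a library. It lost the call with regional medians removed (0.45), while *KRT8* (0.37) was called without clone 3 (0.56). The cause was not tested. The replicate numbers were treated as a block as an alternative: 725 genes were then called higher and 259 lower, and *MUC1* had an adjusted p of 0.253. Deviations of same-numbered libraries correlated at 0.0391, 0.134 and 0.0318. Pairs of unlike number correlated at -0.0745 to 0.036, the highest being control replicate 3 with clone 1. Whether libraries of the same number were handled together cannot be told from these values. For 9 of the 10 genes there were too few reads for a test, and for *MUC1* the number of clones and 163 to 267 reads per library limit the precision.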
